A study of Mus musculus with 16 samples.

Results

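Musashi-2 is an RNA-binding protein that regulates the translation, splicing and stability of the transcripts it binds, and its level in the testis changes as germ cells mature. Whole testes of mice that overexpress Musashi-2 from a testis-specific transgene (TgMsi2) were compared here with testes of their wild-type littermates (Wt(TgMsi2), called wild type). The comparison used 8 of the 16 arrays of the series, 4 for each group, chosen by sample title. All mice were B6xCBA and 3 months old. The promoter that drives the transgene is not named in the labels, and neither group carries any other allele or treatment in them. The other 8 arrays hold a Musashi-1 transgene (TgMsi1) and its own wild-type littermates (Wt(TgMsi1)). Unless a fit of the 8 arrays alone is named, they also enter the estimate of spread behind each SE and p-value. They serve below to ask whether the effects of both transgenes differ.

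In the testis, germ cells develop in tubules lined by Sertoli cells, which nurse them, and wrapped in contractile myoid cells. Between the tubules lie Leydig cells, which make testosterone, with blood vessels and macrophages. Spermatids store much of their mRNA and translate it later, so RNA-binding proteins weigh heavily in their maturation. A whole-testis value sums all these cells, and fewer cells of a type and less RNA per cell cannot be told apart in it. Values are the deposited log2 signals of bead-array probes, and a difference is the mean of the 4 TgMsi2 arrays minus the mean of the 4 Wt(TgMsi2) arrays with the standard error (SE) of the limma fit. A probe is called where its Benjamini-Hochberg adjusted p over 25697 probes is under 0.05. Whether the 4 arrays of a group come from different mice is not stated in the labels, so the p-values cover the spread among these arrays alone, and that spread may be technical. Gene names were available for 932 probes of 836 genes. Of the 2 probes for Msi2 on the array, 0 are among them, so the level of the transgene was not checked.

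Testes with the Musashi-2 transgene differed from wild type at 2960 probes (11.5% of those tested), of which 1594 were higher (6.20%) and 1366 lower (5.32%). A change of more than 1.5-fold was added in 374 of the higher probes (1.46%) and 261 of the lower ones (1.02%). In the fit of the 8 arrays of the Musashi-2 line alone, 2269 probes passed, and the balance turned, with 1015 higher and 1254 lower. Higher probes were 53.9% of the calls with all 16 arrays and 44.7% with these 8 alone. All 4 TgMsi2 arrays lay above all 4 wild-type arrays at 1952 probes (7.60%) and below them at 2163 (8.42%).

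The 4 TgMsi2 arrays did not lie equally far from wild type. On the first principal component of the 8 arrays, which held 59.3% of their variance, TgMsi2 replicates 1 and 3 lay at 29.5 and 24.8, and replicates 2 and 4 at 7.6 and 3.6. The wild-type arrays lay between -23.0 and -9.7. Arrays correlated across probes with r of 0.988 to 0.995 among TgMsi2, 0.992 to 0.994 among wild type, and 0.970 to 0.992 between the groups. Each array was then set against probes called in a fit without it, on a scale where 0 is the wild-type mean of the remaining arrays and 1 their TgMsi2 mean. For probes called higher, TgMsi2 replicates 1 and 3 had a median position of 1.34 and 1.25, and replicates 2 and 4 one of 0.63 and 0.46. For probes called lower the same arrays lay at 1.27, 1.05, 0.72 and 0.62. Wild-type medians ran from -0.06 to 0.33, and the highest belonged to Wt(TgMsi2) replicate 1. All 4 left-out TgMsi2 arrays thus lay nearer to the TgMsi2 side than any wild-type array did. The number of calls rested on the 2 far arrays: it was 1305 without TgMsi2 replicate 1, 1433 without replicate 3 and 201 without both. Leaving out Wt(TgMsi2) replicate 3 gave 1799 calls, and leaving out replicate 4 of that group gave 1781.

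**Figure D1:**
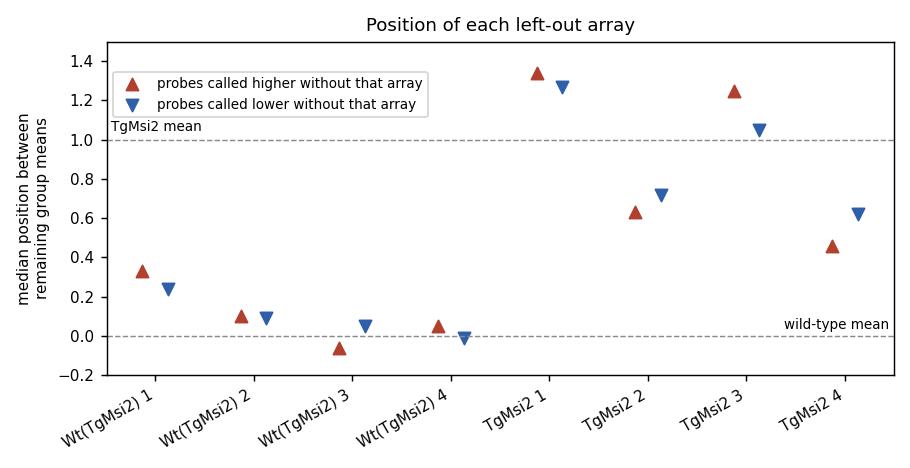
Median position of each of the 8 arrays (x axis) between the wild-type mean (0) and the TgMsi2 mean (1) of the remaining arrays (y axis, no unit), for probes called higher (red) or lower (blue) in a fit without that array. TgMsi2 replicates 1 and 3 lie between 1.05 and 1.34, replicates 2 and 4 between 0.46 and 0.72, and the wild-type arrays at 0.33 or less.

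Among the named genes, the largest rise was that of Timp1, the X-linked inhibitor of matrix metalloproteinases. Its log2 values were 10.15, 9.97, 11.32 and 9.46 in TgMsi2 replicates 1 to 4 and 8.16, 8.17, 7.96 and 7.90 in wild type. The groups lay more than a log2 unit apart at their nearest arrays, and replicate 3 was the highest. The difference was 2.18 (SE 0.33), a 4.52-fold change with an adjusted p of 0.00193. The wild-type arrays lay close to the array median of 7.83, so the fold may be understated. A second Timp1 probe gave 2.17 (SE 0.31, adjusted p = 0.00163), but the probes share 42 bases and are not independent readings. They are shown because this overlap decides how much the second adds, with the shared stretch running from the ninth base of the first probe to its end.

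Timp1 probe 1: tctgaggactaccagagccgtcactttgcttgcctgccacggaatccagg
Timp1 probe 2: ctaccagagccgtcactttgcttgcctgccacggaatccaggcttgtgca

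Lrg1, which encodes a secreted leucine-rich glycoprotein of the acute phase response, had log2 values of 10.41, 9.71, 12.00 and 10.02 in TgMsi2 and 8.74, 8.29, 9.04 and 7.93 in wild type. It rose by 2.03 (SE 0.42, adjusted p = 0.00871). Robo4, a receptor of endothelial cells, stood at 10.52, 9.88, 10.60 and 9.81 against 8.23, 8.12, 8.23 and 8.19, and rose by 2.01 (SE 0.26, adjusted p = 0.000861). Its wild-type arrays lay close together. It was the only 1 of 14 endothelial genes on the array with a name, so the others were not analysed. Lbh, a transcription cofactor, rose by 1.72 (SE 0.25, adjusted p = 0.00165).

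Genes of cell surface signalling and cell death were also among the rises. Tnfrsf12a, the receptor for the cytokine TWEAK, had log2 values of 9.36, 9.01, 9.82 and 8.90 in TgMsi2 and 7.91, 7.83, 7.99 and 7.76 in wild type, a rise of 1.40 (SE 0.16, adjusted p = 0.000573). Ddr1, a collagen-activated receptor tyrosine kinase, stood at 9.96, 9.83, 10.51 and 10.01 against 8.74, 8.84, 8.91 and 8.75, a rise of 1.27 (SE 0.14, adjusted p = 0.000416). In both genes the groups did not overlap and TgMsi2 replicate 3 was the highest array. Gsdmd, the pore-forming protein of pyroptosis, had 10.10, 10.72, 10.70 and 10.69 in TgMsi2 and 9.30, 8.97, 9.05 and 9.55 in wild type, a rise of 1.34 (SE 0.22, adjusted p = 0.003). Here TgMsi2 replicate 1, one of the far arrays, was the lowest of its group. Tnfrsf10b, a death receptor, rose by 0.75 (SE 0.16, adjusted p = 0.0106), with its highest values, 10.09 and 10.01, in replicates 2 and 4. Tnfrsf12a, Gsdmd and Tnfrsf10b were the only named members of 30 TNF receptor and cell death genes on the array. All 3 kept an adjusted p under 0.05 when TgMsi2 replicates 1 and 3 were left out (0.00392 for Tnfrsf12a, 0.0209 for Gsdmd and 0.00392 for Tnfrsf10b).

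Counts of a list's members, above and below, are read against the whole array. Of 17917 genes on it, 354 had a name and a probe called higher (1.98%) and 276 a name and a probe called lower (1.54%). All lists were chosen with earlier results of these data known, so a share above these is a description and not a test. Names come from the deposited comparison tables. The Musashi-2 table holds changes of at least 1.5-fold on these same arrays, so a member's presence in it is no independent evidence of its direction, and a median over named members would only restate that choice. Of its 700 probes 635 were called. Other members are named only through the Musashi-1 table, so whether a member was called partly follows which table named it. Members without a name were not analysed here, so each count, a 0 included, is of named members alone.

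**Figure D2:**
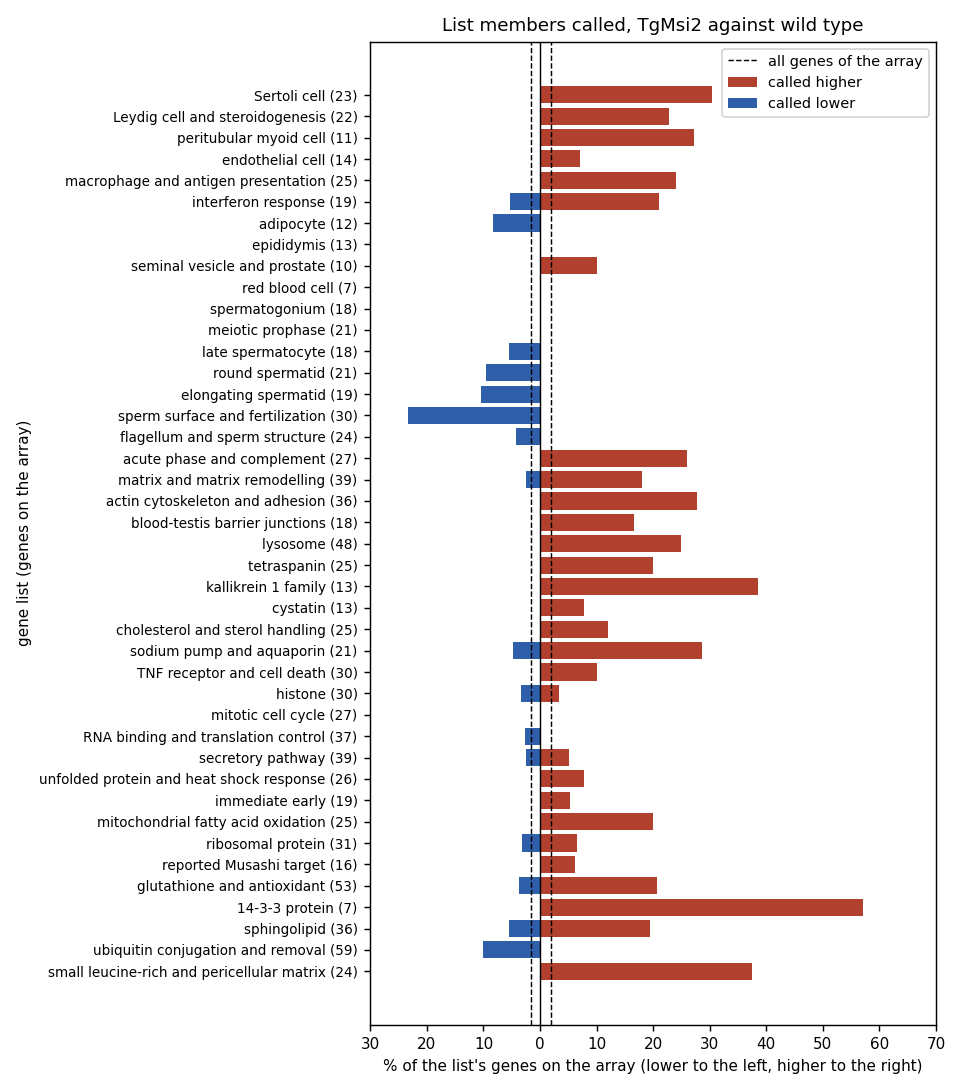
Share of each list's genes on the array (x axis, %) that were named and called higher (red, to the right) or lower (blue, to the left) in TgMsi2 testes, with the number of genes on the array in brackets. Dashed lines mark 1.98% higher and 1.54% lower over all genes of the array; the Sertoli, Leydig, myoid and macrophage lists extend to the right, and the adipocyte, spermatid and sperm lists to the left.

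Acute phase and complement genes had 7 of 27 members called higher and 0 lower. Without TgMsi2 replicates 1 and 3 together, 1 of the 27 was called. Lcn2, which encodes the iron-siderophore-binding lipocalin 2, had log2 values of 14.32, 14.20, 14.30 and 14.20 in TgMsi2 and 13.22, 12.29, 12.58 and 12.27 in wild type, a rise of 1.66 (SE 0.25, adjusted p = 0.00183). The TgMsi2 values lay near the highest value on the arrays, 14.51, so this fold may be compressed. Serping1, the inhibitor of complement component C1, had values of 10.99, 10.51, 11.10 and 10.71 against 9.83, 9.74, 9.41 and 9.61 and rose by 1.18 (SE 0.20, adjusted p = 0.00371). Serpina3n, a protease inhibitor of the acute phase, rose by 1.34 (SE 0.29, adjusted p = 0.011), though 8.71 in TgMsi2 replicate 2 fell just short of 8.75 in Wt(TgMsi2) replicate 3. Complement components C3 and C2 rose by 1.20 (SE 0.32, adjusted p = 0.0279) and 0.76 (SE 0.17, adjusted p = 0.0141). The call of C3 was lost without any 1 of TgMsi2 replicates 3 and 4 and Wt(TgMsi2) replicates 3 and 4 (adjusted p up to 0.0926), and that of C2 without TgMsi2 replicate 1 (0.0504). Serpina3g, a relative of Serpina3n, rose by 1.41 (SE 0.34, adjusted p = 0.0176) and missed the threshold without TgMsi2 replicate 1 or wild-type replicate 2, 3 or 4 (up to 0.0643).

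The named genes with the smallest p-values include Tnfrsf12a and Ddr1, given above, and others with smaller changes. Pcyt1a, the rate-limiting enzyme of phosphatidylcholine synthesis, had log2 values of 10.98 to 11.25 in TgMsi2 and 10.38, 10.38, 10.49 and 10.38 in wild type. It rose by 0.65 (SE 0.06, adjusted p = 0.000251). Ltc4s, which makes leukotriene C4, had 8.76, 9.13, 8.76 and 8.98 against 8.04, 7.85, 8.08 and 8.03 and rose by 0.90 (SE 0.10, adjusted p = 0.000549). In both genes TgMsi2 replicate 2 was the highest array and replicates 1 and 3 did not stand out. Htra1, a secreted serine protease, rose by 0.84 (SE 0.09, adjusted p = 0.000416), the actin-associated Pdlim4 by 0.90 (SE 0.11, adjusted p = 0.000573) and the matrix protein gene Tgfbi by 0.67 (SE 0.08, adjusted p = 0.000573). All 5 stayed under an adjusted p of 0.05 without TgMsi2 replicates 1 and 3, at 0.00392 to 0.0116.

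The falls among named genes were led by Adipoq, the hormone adiponectin that fat cells secrete. Its log2 values were 8.63, 8.94, 8.78 and 9.15 in TgMsi2 and 10.59, 10.44, 11.11 and 10.81 in wild type, and it fell by 1.87 (SE 0.32, adjusted p = 0.00409). It was the only 1 of 12 adipocyte genes on the array with a name, so the others were not analysed. Fcmr, the Fc receptor for IgM, stood at 8.47, 8.70, 8.35 and 8.75 against 10.13, 10.71, 10.12 and 10.44 and fell by 1.78 (SE 0.19, adjusted p = 0.000416). The groups of both genes lay over a log2 unit apart at their nearest arrays. Hoxc9, a homeobox transcription factor, fell by 1.29 (SE 0.15, adjusted p = 0.000573), from 9.73 to 10.41 in wild type to 8.61, 8.90, 9.15 and 8.44. Its lowest array was TgMsi2 replicate 4, the array nearest to wild type over all probes. Gdf9, a growth factor best known from the oocyte, fell by 1.23 (SE 0.18, adjusted p = 0.00163). Slc30a1, a zinc exporter, had values of 9.11, 9.23, 9.29 and 9.38 against 10.12, 10.15, 10.36 and 10.35 and fell by 1.00 (SE 0.10, adjusted p = 0.000251). Ntm, a neural cell adhesion molecule, fell by 1.45 (SE 0.25, adjusted p = 0.00398), and Sec23a, a coat protein of vesicles that leave the endoplasmic reticulum, by 1.44 (SE 0.25, adjusted p = 0.00451).

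**Figure D3:**
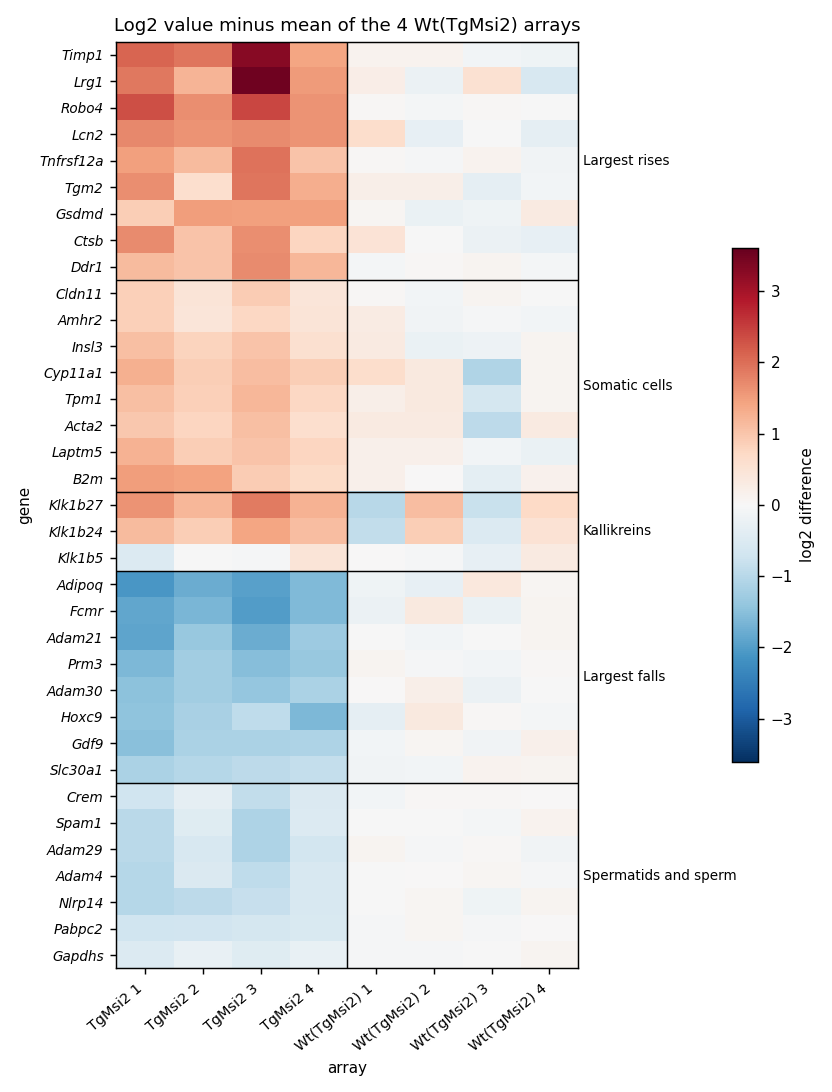
Log2 value of named genes (rows) on each array (columns) minus the mean of the 4 Wt(TgMsi2) arrays for that gene, from blue (lower) to red (higher). Timp1 and Lrg1 are highest in TgMsi2 replicate 3, while Gsdmd and Hoxc9 do not follow the order of the TgMsi2 arrays seen in most other rows.

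Genes of spermatids and sperm were among the falls. Of 30 sperm surface and fertilization genes on the array, 7 were called lower and 0 higher. Without TgMsi2 replicates 1 and 3 together, 2 of the 30 were called lower. Adam30, a testis member of the ADAM family of membrane proteins with a metalloprotease-like domain, had log2 values of 9.00, 9.23, 9.08 and 9.33 in TgMsi2 and 10.48, 10.69, 10.28 and 10.47 in wild type, a fall of 1.32 (SE 0.13, adjusted p = 0.000251). Adam21 stood at 9.27, 9.81, 9.39 and 9.86 against 11.17, 11.07, 11.16 and 11.28 and fell by 1.59 (SE 0.23, adjusted p = 0.0015). In this family Adam29 and Adam4 fell as well, by 0.82 (SE 0.16, adjusted p = 0.00653) and 0.76 (SE 0.17, adjusted p = 0.0113). Spam1, the sperm hyaluronidase, fell by 0.76 (SE 0.14, adjusted p = 0.00524). Eqtn, a protein of the acrosome, fell by 0.79 (SE 0.18, adjusted p = 0.0146) and missed the threshold without TgMsi2 replicate 1 or 3 (adjusted p up to 0.0554). Zp3r, an acrosomal matrix protein, fell by 0.67 (SE 0.17, adjusted p = 0.0242) with overlapping groups, and its call was lost without TgMsi2 replicate 1 or 3 or wild-type replicate 2, 3 or 4 (up to 0.0862). The named members that did not pass were Ly6k, at -0.18 (adjusted p = 0.22), and Calr3, a testis calreticulin, at 0.28 (adjusted p = 0.152). Both have a name only through the Musashi-1 table, while the 7 called members are in the Musashi-2 table. The adjusted p of Calr3 reached 0.0374 in a fit without 1 array.

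Among 21 round spermatid genes, 2 were called lower and 0 higher. Without TgMsi1 replicate 2 or TgMsi2 replicate 4, 4 were called lower, and without TgMsi2 replicates 1 and 3 together 0 were. Crem, the transcription factor that drives many spermatid genes, had log2 values of 9.45, 9.85, 9.28 and 9.65 in TgMsi2 and 10.08, 10.21, 10.23 and 10.18 in wild type. It fell by 0.62 (SE 0.11, adjusted p = 0.00404), and the groups did not overlap. Spam1 was the other called member. Spaca4, a sperm membrane protein, and Catsper4, a subunit of the sperm calcium channel, had differences of -0.72 (adjusted p = 0.0542) and -0.86 (adjusted p = 0.0662). Elongating spermatid genes had 2 of 19 called lower, and 0 without TgMsi2 replicates 1 and 3 together. Prm3, a gene of the protamine cluster, had values of 10.92 to 11.28 against 12.65, 12.49, 12.45 and 12.58 and fell by 1.45 (SE 0.25, adjusted p = 0.00404). Of 18 late spermatocyte genes 1 fell, Aurkc, a meiotic kinase, by 0.62 (SE 0.08, adjusted p = 0.000709, and 0.0199 without TgMsi2 replicates 1 and 3). Of the 18 spermatogonium and 21 meiotic prophase genes on the array, 0 had a name, so these lists were not analysed. The 24 flagellum genes had 1 called lower, Tctex1d1, a dynein light chain family gene, at -0.75 (SE 0.15, adjusted p = 0.00858, and 0.177 without TgMsi2 replicates 1 and 3).

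Among falls with small p-values, Nlrp14, a germ cell NLR-family protein, had log2 values of 12.62, 12.73, 12.82 and 13.07 in TgMsi2 and 13.65, 13.73, 13.50 and 13.76 in wild type. It fell by 0.85 (SE 0.10, adjusted p = 0.000549). Pabpc2, a testis poly(A)-binding protein, had 13.11, 13.13, 13.18 and 13.27 against 13.77, 13.90, 13.79 and 13.82 and fell by 0.65 (SE 0.08, adjusted p = 0.00075). The arrays of each Pabpc2 group lay close together. Pabpc2 was the single called member of 37 RNA binding and translation control genes on the array, of which 3 had a name. Dcp1a, which helps to remove mRNA caps, fell by 0.82 (SE 0.09, adjusted p = 0.000543). Without TgMsi2 replicates 1 and 3 the adjusted p was 0.0128 for Nlrp14, 0.0201 for Pabpc2 and 0.0128 for Dcp1a.

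In 3 pairs of related genes, chosen after their values were seen, the copy expressed in most tissues rose and the testis copy fell. Gapdh, the glycolytic enzyme of most cells, rose by 0.71 (SE 0.14, adjusted p = 0.00668), from 10.85, 10.74, 10.46 and 10.70 to 11.72, 11.16, 11.57 and 11.12 on the log2 scale. Gapdhs, its spermatid counterpart, fell by 0.37 (SE 0.07, adjusted p = 0.00617), from 13.97, 13.96, 13.98 and 14.09 to 13.50, 13.72, 13.56 and 13.73. TgMsi2 replicates 1 and 3 were the highest of their group for Gapdh and the lowest for Gapdhs. Rpl39, an X-linked ribosomal protein gene, rose by 0.83 (SE 0.21, adjusted p = 0.0228), and Rpl39l, its testis-expressed autosomal relative, fell by 0.62 (SE 0.10, adjusted p = 0.00387). Pfn1, the general actin-binding profilin, rose by 0.32 (SE 0.08, adjusted p = 0.0221), and Pfn3, a testis profilin, fell by 0.88 (SE 0.25, adjusted p = 0.0377). The calls of Rpl39, Pfn1 and Pfn3 were each lost when 1 array was left out. For Rpl39 these arrays were TgMsi2 replicates 1 and 3 and Wt(TgMsi2) replicates 2 and 3 (adjusted p up to 0.0817), and for Pfn1 TgMsi2 replicate 1 and Wt(TgMsi2) replicate 2 (up to 0.0789). For Pfn3 they were TgMsi2 replicates 1 and 3 and each wild-type array of the line (up to 0.112).

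**Figure D4:**
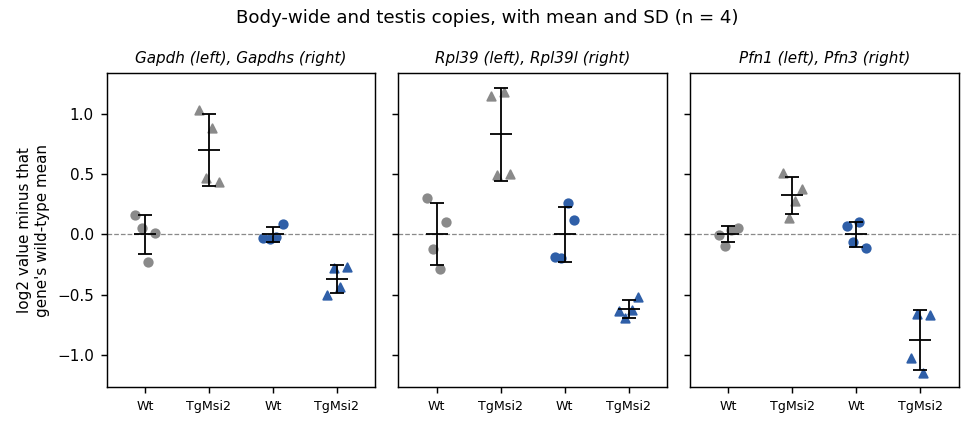
Log2 value of each array minus the wild-type mean of the same gene (y axis) for the general (grey) and testis (blue) gene of 3 pairs, in Wt(TgMsi2) (circles) and TgMsi2 (triangles) arrays, with mean and SD (n = 4 arrays). The general genes lie above 0 and the testis genes below it in all 4 TgMsi2 arrays.

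Promoters were read at genes of both directions, because Crem acts through the cyclic AMP response element. The half-site TGACG was searched on both strands of RefSeq windows of 300 bases that span a gene start (GRCm38.p6). It was present in 20.8% of 32851 windows of all genes, in 29.4% of 374 windows of genes called higher and in 27.6% of 283 windows of genes called lower. The full element TGACGTCA, each copy of which also holds the half-site, was in 1.79%, 4.01% and 3.53% of the same windows. Both called groups exceeded all windows, which also include genes that are not on the array, and the groups lay close to each other. The windows of Timp1 (chrX:20869916-20870215, plus strand, 1 half-site), and of the spermatid gene Pfn3 (chr13:55415183-55415482, minus strand, 2 half-sites) are shown as an example of each direction, with half-sites in capitals. A match is a description of the letters and not a binding site.

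Timp1: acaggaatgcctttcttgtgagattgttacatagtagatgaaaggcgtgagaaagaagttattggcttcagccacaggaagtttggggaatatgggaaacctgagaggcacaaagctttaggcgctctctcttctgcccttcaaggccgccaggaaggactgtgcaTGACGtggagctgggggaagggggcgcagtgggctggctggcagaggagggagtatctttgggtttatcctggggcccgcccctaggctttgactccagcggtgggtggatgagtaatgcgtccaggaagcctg
Pfn3: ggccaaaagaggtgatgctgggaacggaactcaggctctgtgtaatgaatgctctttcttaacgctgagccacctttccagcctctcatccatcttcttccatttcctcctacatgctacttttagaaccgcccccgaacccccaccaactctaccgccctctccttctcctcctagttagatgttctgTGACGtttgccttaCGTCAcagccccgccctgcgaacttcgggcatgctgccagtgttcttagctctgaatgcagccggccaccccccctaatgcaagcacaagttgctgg

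Sertoli cell genes had 7 of 23 members on the array called higher and 0 lower. Cldn11, the claudin of the blood-testis barrier, had log2 values of 14.27, 13.88, 14.32 and 13.84 in TgMsi2 and 13.45, 13.31, 13.50 and 13.40 in wild type, a rise of 0.66 (SE 0.13, adjusted p = 0.00825). Amhr2, the receptor of anti-Müllerian hormone, rose by 0.62 (SE 0.12, adjusted p = 0.00715), and Rhox5, an androgen-responsive homeobox gene, by 0.63 (SE 0.13, adjusted p = 0.00785). Gstm6, Vim and Aard rose by 0.86, 0.61 and 0.59 (adjusted p = 0.00989, 0.0111 and 0.019). The beta-defensin gene Defb36 rose by 0.86 (SE 0.23, adjusted p = 0.0292) with overlapping groups. Aard missed the threshold without TgMsi2 replicate 1 or 3 or wild-type replicate 3 (adjusted p up to 0.0695), and Defb36 without TgMsi2 replicate 1 or 3 or wild-type replicate 2, 3 or 4 (up to 0.0984). Without TgMsi2 replicates 1 and 3 together, 0 of the 23 were called. Among 18 genes of the barrier junctions 3 were called higher and 0 lower: Cldn11, the catenin gene Ctnna1, at 1.01 (SE 0.19, adjusted p = 0.00534), and the adhesion gene Nectin2, at 0.72 (SE 0.14, adjusted p = 0.00712).

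Leydig cell and steroidogenesis genes had 5 of 22 called higher and 0 lower. Insl3, a hormone that Leydig cells secrete, had log2 values of 14.10, 13.82, 14.05 and 13.61 in TgMsi2 and 13.34, 12.77, 12.85 and 13.13 in wild type, a rise of 0.87 (SE 0.19, adjusted p = 0.0107). Vcam1, an adhesion molecule that Leydig cells carry, rose by 1.29 (SE 0.25, adjusted p = 0.00679), with 10.29 in TgMsi2 replicate 4 just under 10.30 in Wt(TgMsi2) replicate 3. Cyp11a1, which makes the first steroid from cholesterol, rose by 1.05 (SE 0.26, adjusted p = 0.021), and Tspo, a mitochondrial membrane protein of steroid-making cells, by 0.71 (SE 0.17, adjusted p = 0.0159). Both missed the threshold without TgMsi2 replicate 1 or 3 (adjusted p up to 0.072 and 0.0578). Adh1 rose by 0.87 (SE 0.23, adjusted p = 0.0284) and did not pass without TgMsi2 replicate 1 or 3 or wild-type replicate 2, 3 or 4 (up to 0.098). The number called was 2 without TgMsi2 replicate 1, again 2 without replicate 3, and 0 without both. Myoid cell genes had 3 of 11 called higher: Tpm1, a tropomyosin, at 0.96 (SE 0.19, adjusted p = 0.00733), Mylk, the kinase of the myosin light chain, at 0.64 (SE 0.14, adjusted p = 0.0129), and Acta2, smooth muscle actin, at 0.86 (SE 0.23, adjusted p = 0.0306). Wt(TgMsi2) replicate 3 had the lowest Acta2 value, 10.92 against 12.18 to 12.20 in the other wild-type arrays, and the call was lost without TgMsi2 replicate 1 or 3 (up to 0.0939). Without both of these TgMsi2 arrays, 0 of the 11 myoid genes were called.

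Markers of other tissues that a testis sample could hold were counted beside these. Of the epididymis genes (13 on the array) and red blood cell genes (7), 0 had a name, so these lists were not analysed. Of 10 seminal vesicle and prostate genes 1 had a name, Svs5, a seminal vesicle protein, and it was called higher, at 0.70 (SE 0.21, adjusted p = 0.0428). Its groups overlapped, and the call was lost without any 1 TgMsi2 array, Wt(TgMsi2) replicate 2, 3 or 4, TgMsi1 replicate 1 or Wt(TgMsi1) replicate 3 (adjusted p up to 0.12). The fall of Adipoq, the fat cell hormone, has been given above. The part of such tissue in the results was not tested.

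Macrophage and antigen presentation genes had 6 of 25 called higher (3 without TgMsi2 replicates 1 and 3 together) and 0 lower. B2m, the light chain of MHC class I, had log2 values of 12.68, 12.63, 12.08 and 11.87 in TgMsi2 and 11.37, 11.18, 10.83 and 11.34 in wild type, a rise of 1.14 (SE 0.24, adjusted p = 0.0102). Laptm5, a lysosomal protein of blood cells, had 10.23, 9.85, 9.99 and 9.73 against 9.14, 9.14, 8.86 and 8.72 and rose by 0.99 (SE 0.13, adjusted p = 0.00101). Cd74, the invariant chain of MHC class II, had 9.02, 10.05, 9.20 and 9.55 against 8.47, 8.65, 7.79 and 8.83 and rose by 1.02 (SE 0.25, adjusted p = 0.0174). Cd74 was highest in TgMsi2 replicates 2 and 4, the arrays nearer to wild type over all probes. H2-Eb1, a class II chain, had the same order, at 8.30, 9.11, 8.38 and 8.59 in TgMsi2, and rose by 0.63 (SE 0.15, adjusted p = 0.0186). In the fit of the 8 arrays alone the adjusted p was 0.0582 for Cd74 and 0.0682 for H2-Eb1, and H2-Eb1 also missed the threshold without Wt(TgMsi2) replicate 3 (0.0595). Fcer1g and Lyz2 rose by 0.64 (adjusted p = 0.0205) and 0.61 (adjusted p = 0.0231). The Fcer1g call was lost without TgMsi2 replicate 3 or wild-type replicate 1 (up to 0.0684), and the Lyz2 call without TgMsi2 replicate 1 or wild-type replicate 2 or 4 (up to 0.0823).

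Interferon response genes went both ways, with 4 of 19 called higher and 1 lower, and 2 called higher without TgMsi2 replicate 1 or 3 or wild-type replicate 1 or 4. Irf1, a transcription factor of the response, rose by 0.66 (SE 0.13, adjusted p = 0.00614), and Ifi27 by 0.84 (SE 0.14, adjusted p = 0.00388). Epsti1 fell by 0.77 (SE 0.10, adjusted p = 0.000778), from 8.50, 8.74, 8.58 and 9.00 to 7.91, 7.92, 7.96 and 7.94, close to the array median. The membrane proteins Ifitm2 and Ifitm3 rose by 0.84 (adjusted p = 0.0277) and 0.79 (adjusted p = 0.0287). Both calls were lost without TgMsi2 replicate 1 or 3 or wild-type replicate 1 or 4, that of Ifitm2 also without Wt(TgMsi2) replicate 2 and that of Ifitm3 without Wt(TgMsi2) replicate 3 (adjusted p up to 0.0931 and 0.0952).

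Genes of the cytoskeleton and the matrix were among the rises. Of 36 actin cytoskeleton and adhesion genes 10 were called higher (6 without TgMsi2 replicate 1, and 0 without replicates 1 and 3 together) and 0 lower. In the fit of the 8 arrays alone 1 was called lower. The list member Anxa3 had a difference of -0.77 (SE 0.25, adjusted p = 0.0617) and was not called. Tmsb4x, the X-linked actin monomer-binding thymosin, had log2 values of 13.64, 13.35, 13.50 and 13.32 in TgMsi2 and 12.85, 12.59, 12.48 and 12.62 in wild type, a rise of 0.81 (SE 0.13, adjusted p = 0.00269). The calcium-binding S100a11 rose by 1.02 (SE 0.17, adjusted p = 0.00355), the membrane-linking Anxa2 by 0.89 (SE 0.16, adjusted p = 0.00427) and the focal adhesion gene Zyx by 0.97 (SE 0.19, adjusted p = 0.00614). Matrix and matrix remodelling genes had 7 of 39 called higher and 1 lower. Besides Timp1, Tgm2, which crosslinks proteins, rose by 1.38 (SE 0.24, adjusted p = 0.00438), Sparc, a collagen-binding glycoprotein, by 1.02 (SE 0.22, adjusted p = 0.0111) and Dcn, the proteoglycan decorin, by 0.92 (SE 0.19, adjusted p = 0.00767). Loxl1, an elastin crosslinking enzyme, fell by 0.59 (SE 0.10, adjusted p = 0.00395). Without TgMsi2 replicate 1, and again without replicate 3, the number called higher was 4, and without both it was 1. In a list of 24 small leucine-rich and pericellular matrix genes that was added after values were seen, 9 were called higher (5 without TgMsi2 replicate 3) and 0 lower. They include Pcolce, an enhancer of procollagen processing, at 0.99 (SE 0.16, adjusted p = 0.00308), and Prelp, a matrix proteoglycan, at 0.98 (SE 0.19, adjusted p = 0.00614). The matrix gene Lum, at 0.14 (adjusted p = 0.453), did not pass.

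Lysosomal genes had 12 of 48 members called higher and 0 lower, and between 11 and 12 in each fit without 1 array. Ctsb, the cysteine protease cathepsin B, had log2 values of 13.07, 12.38, 13.05 and 12.13 in TgMsi2 and 11.87, 11.36, 11.16 and 11.07 in wild type, a rise of 1.29 (SE 0.23, adjusted p = 0.00442). Gusb, the enzyme beta-glucuronidase, had 9.82, 9.87, 9.72 and 9.59 against 9.16, 8.94, 8.85 and 8.89 and rose by 0.79 (SE 0.10, adjusted p = 0.000778). Gusb did not share the step between TgMsi2 replicates 1 and 3 and replicates 2 and 4 that Ctsb shows. Asah1, which splits ceramide, rose by 1.02 (SE 0.20, adjusted p = 0.00671), Lamp2, a major membrane protein of lysosomes, by 0.95 (SE 0.17, adjusted p = 0.00476), and Lgmn, the protease legumain, by 0.90 (SE 0.19, adjusted p = 0.0088). Psap, the saposin precursor, and Grn, which encodes progranulin, rose by 0.82 (adjusted p = 0.00514) and 0.66 (adjusted p = 0.00314). Without both far TgMsi2 arrays 3 of the 48 were called. Tetraspanins, membrane proteins that organise other proteins at the surface, had 5 of 25 called higher and 0 lower (1 higher without both far TgMsi2 arrays). They include Cd81 at 0.98 (SE 0.18, adjusted p = 0.00574), Cd151 at 0.94 (SE 0.16, adjusted p = 0.00409) and Cd63 at 0.73 (SE 0.13, adjusted p = 0.00404). Cstb, a cystatin that inhibits cathepsins, rose by 1.13 (SE 0.26, adjusted p = 0.0134, and 0.0506 without TgMsi2 replicate 1). It was the single called member of 13 cystatins on the array, and 2 were called without TgMsi1 replicate 2 or TgMsi2 replicate 2 or 4.

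Kallikrein 1 family genes, a mouse cluster of secreted serine proteases on chromosome 7, had 5 of 13 called higher and 0 lower. The probes of such close relatives can read each other, so the sequences are shown against that of Klk1b5, whose difference was -0.03 (SE 0.19, adjusted p = 0.963). Capitals mark bases that differ from the Klk1b5 probe where the probes align. The Klk1b24 probe aligned over 48 bases with 9 differences, the Klk1b21 probe over 49 with 9, and the Klk1b22 probe over 50 with 7.

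Klk1b5: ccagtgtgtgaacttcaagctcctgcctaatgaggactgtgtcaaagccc
Klk1b24: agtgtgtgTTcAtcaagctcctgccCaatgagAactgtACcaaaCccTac
Klk1b21: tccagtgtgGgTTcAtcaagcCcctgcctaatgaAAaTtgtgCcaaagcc
Klk1b22: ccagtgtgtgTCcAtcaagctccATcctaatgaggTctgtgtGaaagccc

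The kallikrein calls depended on single arrays of both groups. Leaving out TgMsi2 replicate 3 took the count from 5 to 0, replicate 1 took it to 1 and replicate 4 to 2. It became 0 when Wt(TgMsi2) replicate 3 was left out and 1 when replicate 1 of that group was. Klk1b27 had log2 values of 12.30, 11.87, 12.54 and 11.93 in TgMsi2 and 9.67, 11.80, 9.87 and 11.39 in wild type, a difference of 1.48 (SE 0.40, adjusted p = 0.0277). Klk1b24 had 11.13, 10.88, 11.42 and 11.11 against 9.10, 10.86, 9.49 and 10.50, a difference of 1.15 (SE 0.31, adjusted p = 0.0269). In both genes Wt(TgMsi2) replicates 1 and 3 were low, while replicates 2 and 4 lay near the TgMsi2 arrays. Klk1b4, Klk1b21 and Klk1b22 had differences of 0.75, 0.82 and 0.82 (adjusted p = 0.0384, 0.0476 and 0.0419) with overlapping groups. Klk1b9 had a difference of -0.60 (adjusted p = 0.0993). In the fit of the 8 arrays of the line alone, 0 of the 13 genes were called. Both Klk1b27 and Klk1b24 missed the threshold without TgMsi2 replicate 1 or 3 or wild-type replicate 1 or 3 (adjusted p up to 0.0868 and 0.0841). The other 3 each missed it without TgMsi2 replicate 3 or 4 or wild-type replicate 1 or 3, and without further arrays in each case (up to 0.151).

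Metabolic genes of several pathways were among the rises. Fatty acid oxidation had 5 of 25 members called higher and 0 lower, among them Acadm, the medium-chain acyl-CoA dehydrogenase, at 0.76 (SE 0.16, adjusted p = 0.0108), Echs1, an enoyl-CoA hydratase, at 0.81 (SE 0.16, adjusted p = 0.0072), and Etfdh, which passes the electrons on, at 0.64 (SE 0.11, adjusted p = 0.00354). Acadm had 11.72, 10.95, 11.29 and 10.78 in TgMsi2 and 10.65, 10.52, 10.22 and 10.29 in wild type. Without TgMsi2 replicate 1, 3 of the 25 were called, and without both far TgMsi2 arrays 0 were. Among 53 glutathione and antioxidant genes, a list added after values were seen, 11 were called higher and 2 lower. Its calls higher dropped to 3 without TgMsi2 replicate 1, to 4 without replicate 3, to 5 without Wt(TgMsi2) replicate 3 or 4, and to 4 in the fit of the 8 arrays alone. Examples were the peroxiredoxin Prdx2 at 0.80 (SE 0.18, adjusted p = 0.0134, and 0.0504 without TgMsi2 replicate 1) and, in the lower direction, the quinone reductase Nqo2 at -0.97 (SE 0.23, adjusted p = 0.0154, and 0.0566 without TgMsi2 replicate 1).

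Sphingolipid genes, also a list added after values were seen, had 7 of 36 called higher and 2 lower. Without TgMsi2 replicates 1 and 3 together, 1 was called in each direction. Ormdl3, a regulator of the first enzyme of sphingolipid synthesis, had log2 values of 12.04, 11.53, 12.18 and 11.42 in TgMsi2 and 10.84, 10.60, 10.57 and 10.99 in wild type, a rise of 1.04 (SE 0.16, adjusted p = 0.00214). Degs1, which makes ceramide from dihydroceramide, and Cers2, a ceramide synthase, rose by 0.78 (SE 0.13, adjusted p = 0.00334) and 0.74 (SE 0.15, adjusted p = 0.00756). Cert1, the protein that carries ceramide to the Golgi, fell by 0.99 (SE 0.18, adjusted p = 0.00562), and the sialyltransferase gene St8sia3 by 0.78 (SE 0.11, adjusted p = 0.00145). Cert1 had 8.62, 9.11, 8.77 and 9.04 in TgMsi2 and 9.72 to 9.99 in wild type, so the groups did not overlap. Cholesterol genes had 3 of 25 called higher and 0 lower, and 0 called without TgMsi2 replicates 1 and 3 together. The 3 include Ebp, a sterol isomerase, at 0.72 (SE 0.15, adjusted p = 0.00872), and Soat1, which esterifies cholesterol, at 0.71 (SE 0.16, adjusted p = 0.0145). Of 7 genes for 14-3-3 proteins, which bind phosphorylated partners (a list added after values were seen), 4 were called higher and 0 lower. Ywhah and Ywhag led them, at 0.82 (SE 0.15, adjusted p = 0.00598) and 0.74 (SE 0.14, adjusted p = 0.00682). Without TgMsi2 replicates 1 and 3 together, 0 of the 7 were called.

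Sodium pump and aquaporin genes had 6 of 21 called higher and 1 lower. The water channel gene Aqp8 had log2 values of 10.44, 10.50, 10.73 and 10.05 in TgMsi2 and 9.81, 9.52, 9.77 and 9.78 in wild type and rose by 0.71 (SE 0.13, adjusted p = 0.00555). Aqp11, an aquaporin of intracellular membranes, had 8.58, 8.86, 8.60 and 8.59 against 9.83, 9.46, 9.90 and 9.06 and fell by 0.91 (SE 0.16, adjusted p = 0.00492). Fxyd2, a regulatory subunit of the sodium pump, rose by 0.84 (SE 0.18, adjusted p = 0.0116). Without TgMsi2 replicate 1 the list had 2 genes called higher, and without TgMsi2 replicate 3 or wild-type replicate 3 it had 3.

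The called stress genes were higher and the called ubiquitin genes lower. Hspb1, a small heat shock protein, had log2 values of 10.65, 10.47, 10.77 and 10.20 in TgMsi2 and 9.81, 9.48, 9.56 and 9.44 in wild type and rose by 0.95 (SE 0.12, adjusted p = 0.000778). Xbp1, a transcription factor of the unfolded protein response, rose by 0.67 (SE 0.11, adjusted p = 0.00395). These 2 were the only named members of 26 unfolded protein and heat shock genes on the array. Klf6, the only named member of 19 immediate early genes on the array, rose by 0.67 (SE 0.09, adjusted p = 0.00106). Of 59 genes of ubiquitin conjugation and removal, a list added after values were seen, 0 were called higher and 6 lower. Ube2k, a ubiquitin-conjugating enzyme, had 11.99, 12.38, 12.13 and 12.17 in TgMsi2 and 12.94, 12.99, 12.82 and 12.94 in wild type and fell by 0.75 (SE 0.11, adjusted p = 0.0021). The deubiquitinases Usp1 and Usp2 fell by 0.79 (SE 0.11, adjusted p = 0.00165) and 0.60 (SE 0.10, adjusted p = 0.0027). Without TgMsi2 replicate 1 or 3 or wild-type replicate 4, 3 of these genes were called. Of 27 mitotic cell cycle genes on the array 1 had a name, and it was not called.

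Histone genes had 1 of 30 members called in each direction. H1f2, a linker histone, rose by 0.79 (SE 0.19, adjusted p = 0.0161, and 0.0552 without TgMsi2 replicate 3). H3c1, a histone H3 gene, had log2 values of 8.72, 9.09, 9.01 and 9.21 in TgMsi2 and 10.09, 9.61, 10.10 and 10.04 in wild type and fell by 0.95 (SE 0.21, adjusted p = 0.0115). Further H3 genes outside the list, H3c6 and H3c4, fell by 0.91 (SE 0.20, adjusted p = 0.0111) and 0.88 (SE 0.20, adjusted p = 0.0137, and 0.0525 without TgMsi2 replicate 1). The H3c6 and H3c4 probes differ at 1 base over 46 aligned bases, in capitals below, so they may read the same transcripts and are not independent.

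H3c6: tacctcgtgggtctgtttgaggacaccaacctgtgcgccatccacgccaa
H3c4: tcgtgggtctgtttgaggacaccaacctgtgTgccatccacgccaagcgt

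Of 35 named X-linked genes in the authors' deposited Musashi-2 table, 26 were higher (74.3%), against 288 of 493 autosomal genes (58.4%). The share varied between autosomes, and it was above that of the X on chromosome 15 (17 of 22, 77.3%) and chromosome 17 (12 of 16, 75.0%). These shares describe a table selected by fold, and no test was made of their difference. The X-linked genes that rose include Smarca1, a chromatin remodeller, at 0.91 (SE 0.15, adjusted p = 0.00308), the creatine transporter Slc6a8 at 0.91 (SE 0.21, adjusted p = 0.0131), Rps4x, a ribosomal protein gene, at 0.90 (SE 0.20, adjusted p = 0.0129), and the mitochondrial carrier Slc25a5 at 0.81 (SE 0.17, adjusted p = 0.0101). Rps4x had log2 values of 12.01, 11.65, 11.83 and 11.31 in TgMsi2 and 11.15, 10.83, 10.49 and 10.72 in wild type. Genes that fell include Zcchc13, an intronless zinc finger gene, at -0.90 (adjusted p = 0.00474), and H2al1e, a testis histone H2A variant, at -0.66 (SE 0.16, adjusted p = 0.0208). The H2al1e call was lost without TgMsi2 replicate 1 or wild-type replicate 3 or 4 (adjusted p up to 0.0757).

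Of 16 reported Musashi targets on the array only 1 had a name, Tbx1, a T-box transcription factor, and it was called. The other targets were not analysed. It had log2 values of 9.26, 9.40, 9.34 and 9.99 in TgMsi2 and 8.54, 8.75, 8.64 and 8.80 in wild type and rose by 0.81 (SE 0.21, adjusted p = 0.0231). Its highest array was TgMsi2 replicate 4, and the call was lost without Wt(TgMsi2) replicate 1 or 3 (adjusted p up to 0.057). In the Musashi-1 line the Tbx1 difference was 0.79 (adjusted p = 0.292).

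The effect of the Musashi-2 transgene was tested against that of the Musashi-1 transgene in 1 interaction contrast, in which the lines share no arrays. It passed at 2 of 25697 probes (0.00778%), with 2821 probes at an unadjusted p under 0.05. Tm9sf2, a membrane protein of the nonaspanin family, had log2 values of 8.30, 8.13, 8.13 and 8.27 in TgMsi2 and 8.72, 8.86, 8.82 and 8.86 in wild type. It fell by 0.61 (SE 0.06, adjusted p = 0.000251), against a difference of 0.03 (adjusted p = 0.942) in the Musashi-1 line, and the effects differed by -0.64 (SE 0.08, adjusted p = 0.0426). The other probe, ILMN_1377919, has no name here, and its effects differed by 0.44 (SE 0.06, adjusted p = 0.0426). The number of probes past the threshold was 0 in 5 of the fits without 1 array, where 2262 to 2624 probes had an unadjusted p under 0.05, and 107 without TgMsi1 replicate 2. The fits at 0 left out TgMsi1 replicate 1 or 4 or Wt(TgMsi2) replicate 2, 3 or 4.

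Genes just outside the threshold of this contrast include Hoxc9, at -1.29 in the Musashi-2 line and 0.20 in the Musashi-1 line (interaction adjusted p = 0.059), Laptm5 at 0.99 and -0.19 (0.0726), Slc30a1, which fell by 1.00, at -0.16 in the Musashi-1 line (0.0726) and Ddr1 at 1.27 and 0.17 (0.0967). The probes of the authors' deposited Musashi-1 table were split by the sign of their fitted difference in the Musashi-1 line. Of the 128 with a positive difference, 27 were called higher and 2 lower with the Musashi-2 transgene. Of the 118 with a negative one, 0 were called higher and 53 lower. These counts stand against 6.20% higher and 5.32% lower over all probes. The share is larger among bright probes: in a fit of the 10831 with a mean log2 above 8, 1733 were called higher and 1577 lower. How the probes of that table were selected is not stated in the labels or file headers, and their brightness was not matched. Adipoq had differences of -1.87 in the Musashi-2 line and -1.09 (adjusted p = 0.362) in the Musashi-1 line. Gsdmd had 1.34 and 0.92 (adjusted p = 0.252), and Fxyd2 had 0.84 and 0.72 (adjusted p = 0.287).

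**Figure D5:**
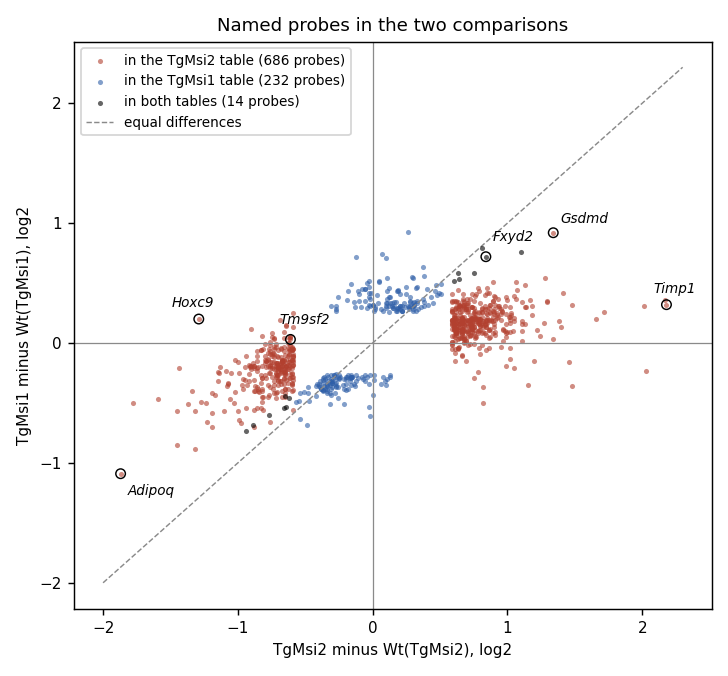
Log2 difference from wild type in the Musashi-2 line (x axis) and in the Musashi-1 line (y axis) for 932 named probes, coloured by the deposited table that holds them, with a dashed line where both are equal. Probes of the Musashi-2 table lie at least 1.5-fold from 0 on the x axis by construction. How the Musashi-1 table was selected is not stated, and it holds smaller differences on its axis, such as 0.27 for Pfn1. Tm9sf2 and Hoxc9 lie to the left of 0 and near or above 0 on the y axis.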

How the data were processed

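Total RNA of whole testis was measured on Illumina bead arrays, which read labelled cRNA with probes on beads, 1 array per sample. The deposited value table holds log2 signals of 25697 probes on 16 arrays. GenomeStudio is named, with no version, per the submitters' processing notes, and how they were normalized is not stated in these sources. The sorted columns of the arrays differ by at most 0.006, and the log2 values run from 7.37 to 14.51 with a median of 7.83, so differences of dim probes may be understated. Such arrays have no sequencing depth; their number, 4 a group, sets the precision.

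The authors also deposited a table for each transgene that gives each probe a p-value, a transgenic over wild-type ratio and a signed fold score, per the file headers. They supplied gene names for 932 probes. Of these, 849 matched RefSeq (GRCm38.p6) by Entrez number, and 144 symbols were updated. Probe positions in these tables mix genome builds, so none are printed. Probe sequences are those of the deposited tables, and promoter windows are those of RefSeq.

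Groups were taken from the sample titles. The log2 values were fitted with limma 3.58.1 under R 4.3.3 (1 mean per group over 16 arrays, 12 residual degrees of freedom, contrasts, eBayes), with Benjamini-Hochberg adjustment over all probes. The fit was tested on simulated data. The members and gene lists were chosen with earlier results of these data known, and 5 of the lists and the pairs of related genes after values were seen. Named genes are the 15 largest rises and falls whose groups do not overlap, the 8 smallest adjusted p and the 6 highest wild-type means among calls in each direction, up to 6 per list, and the 10 smallest interaction p, of which those used are printed. A gene with several probes is given by the probe with the largest change, and predicted genes were left out. Other genes were added after their values were seen. Some genes are not reported here.

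Alternatives were a fit of the 8 arrays of the line, the replicate number as a block, an intensity trend with robust variance, array weights, a minimum mean log2 of 8, centring on bright probes, quantile normalization of the 8 arrays, each array left out, and, added after seeing the data, each pair of TgMsi2 arrays left out. In another table, of values before normalization, 128 columns have names that match no sample, and none of them was used. The planned background correction, detection filter and slide block needed them and were not run.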

Additional observations from a re-analysis of the deposited data

Results flagged for a closer look

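Each of 144 named genes was tested for an array far from the other 3 of its group by Dixon's test at its 95% critical value, in 288 groups in all. It found 14 such arrays, about the 1 in 20 that chance gives. Among TgMsi2 arrays, replicate 1 stood apart for Gsdmd at 10.10 (low), Gdf9 at 8.82 (low) and Serpina3g at 12.12 (high), and replicate 2 for Pcyt1a at 11.25 and Aqp11 at 8.86, both high. Among wild-type arrays, Wt(TgMsi2) replicate 3 stood apart for Acta2 at 10.92, Ctnna1 at 10.81 and Ywhah at 10.17, all low, and for Pcyt1a at 10.49 (high). Wt(TgMsi2) replicate 1 did so for Serpina3g at 10.91 (high), replicate 2 for H3c1 at 9.61 and Aqp8 at 9.52, both low, and for Lum at 8.44, and replicate 4 for Lgmn at 9.61 (low). All values are log2 signals.

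The effects of the Musashi-2 and Musashi-1 transgenes differed in the interaction test at Tm9sf2, by -0.64 on the log2 scale (SE 0.08, limma adjusted p = 0.0426), and at the unnamed probe ILMN_1377919, by 0.44 (SE 0.06, limma adjusted p = 0.0426).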

How the results depend on the processing

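The 2960 calls between TgMsi2 and wild type became 1305 to 3530 when 1 array was left out. Without pairs of TgMsi2 arrays, chosen after seeing the data, there were 667 (replicates 1 and 2), 201 (1 and 3), 1285 (1 and 4), 850 (2 and 3), 3911 (2 and 4) and 1687 (3 and 4). They lay between 2269 and 3819 under the other alternatives. The 2 calls of the interaction test became 0 to 107 when 1 array was left out. They became 12 with the intensity trend and robust variance, 724 without TgMsi2 replicates 2 and 4, 0 without 3 and 4 (2609 probes at an unadjusted p under 0.05), and 1 without 1 and 2, 1 and 3, or 2 and 3. With the replicate block 3333 probes were called between TgMsi2 and wild type and 13 in the interaction. Deviations of same-numbered arrays from their group means correlated at 0.37, 0.13, -0.32 and -0.01, so the numbers were not taken as pairs. Single genes were followed for 144 of the named genes, chosen in large part for large changes or small p-values. Of the 137 of them that passed, 105 passed in every fit without 1 array. In the fit of the 8 arrays alone 119 passed, and 35 did without TgMsi2 replicates 1 and 3. Those lost in the fit of the 8 arrays were Aard, Acadm, Acta2, Adh1, C3, Cd74, Cstb, Cyp11a1, Defb36, H1f2, H2-Eb1, Svs5, Zp3r and the 5 kallikreins (adjusted p 0.0503 to 0.108). Over all probes, 1900 of the 2960 calls were kept in the fit of the 8 arrays and 192 without TgMsi2 replicates 1 and 3. Klk1b5, which did not pass, ran from -0.19 to 0.13 without 1 array (0.13 without TgMsi2 replicate 1, 0.08 without Wt(TgMsi2) replicate 4), and changed sign to 0.20 without TgMsi2 replicates 1 and 2, and 0.22 without 1 and 3. No other gene among these 144 changed sign in the alternatives run. Centring on bright probes gave 2958 calls, and quantile normalization of the 8 arrays gave the counts of the fit of those arrays alone. The sorted columns already differed by at most 0.006, so both alternatives could change little and cannot show how the results depend on normalization. The cause of the shifts under the other alternatives was not tested.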

Other observations

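Secretory pathway genes had 2 of 39 members on the array called higher and 1 lower. Ssr4, an X-linked subunit of the translocon-associated complex of the endoplasmic reticulum, had log2 values of 11.55, 11.12, 11.37 and 11.05 in TgMsi2 and 10.64, 10.55, 10.31 and 10.57 in wild type, and rose by 0.76 (SE 0.14, adjusted p = 0.00581). Sec23a was the member called lower. Ribosomal protein genes had 2 of 31 called higher, Rps4x and Rpl39, and 1 lower, Rpl39l.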
